A study of Ovis aries with 30 samples.

Results

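DNA replication genes encode the proteins that license origins, unwind and copy the DNA, supply its nucleotides and pass its methylation and nucleosomes on to the new strands. A fixed list of 47 such genes was looked up by symbol in a table of read counts of 28524 genes from newborn lambs, and 46 of them were found, while PRIM2 was not analysed here. All 46 passed the filter on low counts (at least 10 reads in at least 10 libraries) in both tissues studied, brown adipose tissue (BAT) and thyroid tissue. The members fall into 8 roles: origin licensing (11 genes), helicase activation (6), the sliding clamp and its loader (6), polymerases and primase (6 of 7 listed), lagging strand maturation and fork proteins (5), nucleotide supply (4), copying of chromatin and methylation (4), and entry into and exit from S phase (4).

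Before S phase the origin recognition complex, CDC6 and CDT1 load the MCM helicase onto DNA, and geminin (GMNN) keeps CDT1 from loading it again. CDC45, the GINS complex and MCM10 then switch the helicase on, primase and the polymerases copy the strands behind it, and PCNA, the ring that holds polymerases on DNA, is placed by replication factor C (RFC). Transcription of many of these genes is driven by E2F factors as a cell enters the cycle, so their transcripts are usually read as a sign of proliferating cells. Around birth the BAT of lambs is the main site of heat production without shivering, and the thyroid supplies the hormones that raise it.

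RNA was sequenced from BAT around the kidneys and from the thyroid of 15 Romney lambs, 1 twin per ewe. The aim was to profile both tissues in newborn lambs kept at ambient temperature or in the cold. The libraries form 6 groups, 1 per tissue for 3 control lambs (2 males and 1 female), which were sampled when they were brought indoors within a day of birth, for 6 lambs kept for 2 days at ambient temperature (AT, 20 to 22 °C) and for 6 lambs kept for 2 days at 4 °C (cold). The AT and cold groups each held 4 males and 2 females and were penned with their ewes. Controls were thus younger than all treated lambs, by 2 days, so that treatment and age cannot be told apart against controls, and only cold against AT compared lambs of the same age. The control lamb named Control 2 here was left out of the fits in both tissues, which left 2 controls, and its values are given beside theirs.

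The counts of a library summed to between 31556500 and 37025998 in BAT and between 25062784 and 30124871 in thyroid. The members took between 2694 and 23402 of these counts in BAT and between 14411 and 24319 in thyroid. Levels are normalized counts, that is counts divided by a size factor from 3 reference genes (ACTB, RPL19 and HUWE1), which ran from 0.465 to 1.84 over the BAT libraries and 0.632 to 1.21 over the thyroid libraries. In bulk tissue, fewer cells that replicate and less RNA per cell cannot be told apart.

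Several libraries stood apart in genes of other cell types. The BAT library of Control 2 had the fewest counts in the members, 2694, no read for CDC6 (up to 6.45 normalized counts would be possible at a count of 0, counting error only), and the highest sum of 11 brown adipocyte markers, 408413 against 28971 to 124733 in the treated lambs. UCP1, the uncoupling protein of brown fat, stood at 20587 to 87348 normalized counts in the BAT of the 3 controls and at 12953 or less in all 12 treated lambs, lowest in AT 6 with 195. The sum of the brown adipocyte markers was 113845 and 114035 in the other 2 controls. In thyroid, a sum over 9 skeletal muscle genes was 3496280 in AT 3 and 324729 in Control 1 but at most 4487 elsewhere. DNTT, an enzyme of T cell precursors, had 199 and 135 normalized counts in the thyroid of AT 2 and AT 3 and at most 4.24 in the other lambs, and RAG1 and RAG2 had reads in the thyroid of only these 2 lambs. The sum over 8 thymocyte markers did not single them out, with 4008 to 7700 in the thyroid controls, highest in Control 2. It was 3108 to 6207 in AT, highest in AT 2, and 2988 to 4474 in cold. The sum over the 10 thyrocyte markers was between 1328920 and 5891880 in thyroid and between 143 and 1579 in BAT. The part of these cells in the results below was not tested, except where values without a library are given.

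Per kilobase of exon and on a scale common to both tissues, MCM7, a subunit of the MCM helicase, was the highest member in the 12 treated lambs, with a mean of 1267 in BAT and 696 in thyroid. POLE, the catalytic subunit of the leading strand polymerase, was the lowest in both tissues, with means of 10.7 and 5.76. Among the genes of helicase activation the highest were CDC45 in BAT (109) and GINS2 in thyroid (101), and of the clamp and its loader RFC5 in BAT (528) and RFC4 in thyroid (287). PRIM1, the catalytic subunit of primase, led the polymerases with 151 and 85.97. RPA2, a subunit of the protein that coats single-stranded DNA, led the fork proteins with 331 and 278, and RRM1, the large subunit of ribonucleotide reductase, led nucleotide supply with 319.7 and 235.5. DNMT1, which copies methylation, led its role with 241 and 180.04. DTL, the adaptor that marks CDT1 for destruction, led the S phase genes in BAT (130.02), while E2F1 led them in thyroid (49.8). Of the exon bases of RFC5, 14.5% are shared with another gene, as are 13.3% of TYMS, 8.83% of POLE2 and at most 3.05% of CCNE2, GINS2, ORC1 and RFC4, and since the strand setting of the counting was not stated, these genes are uncertain. The other 39 members share no exon bases.

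**Figure D1:**
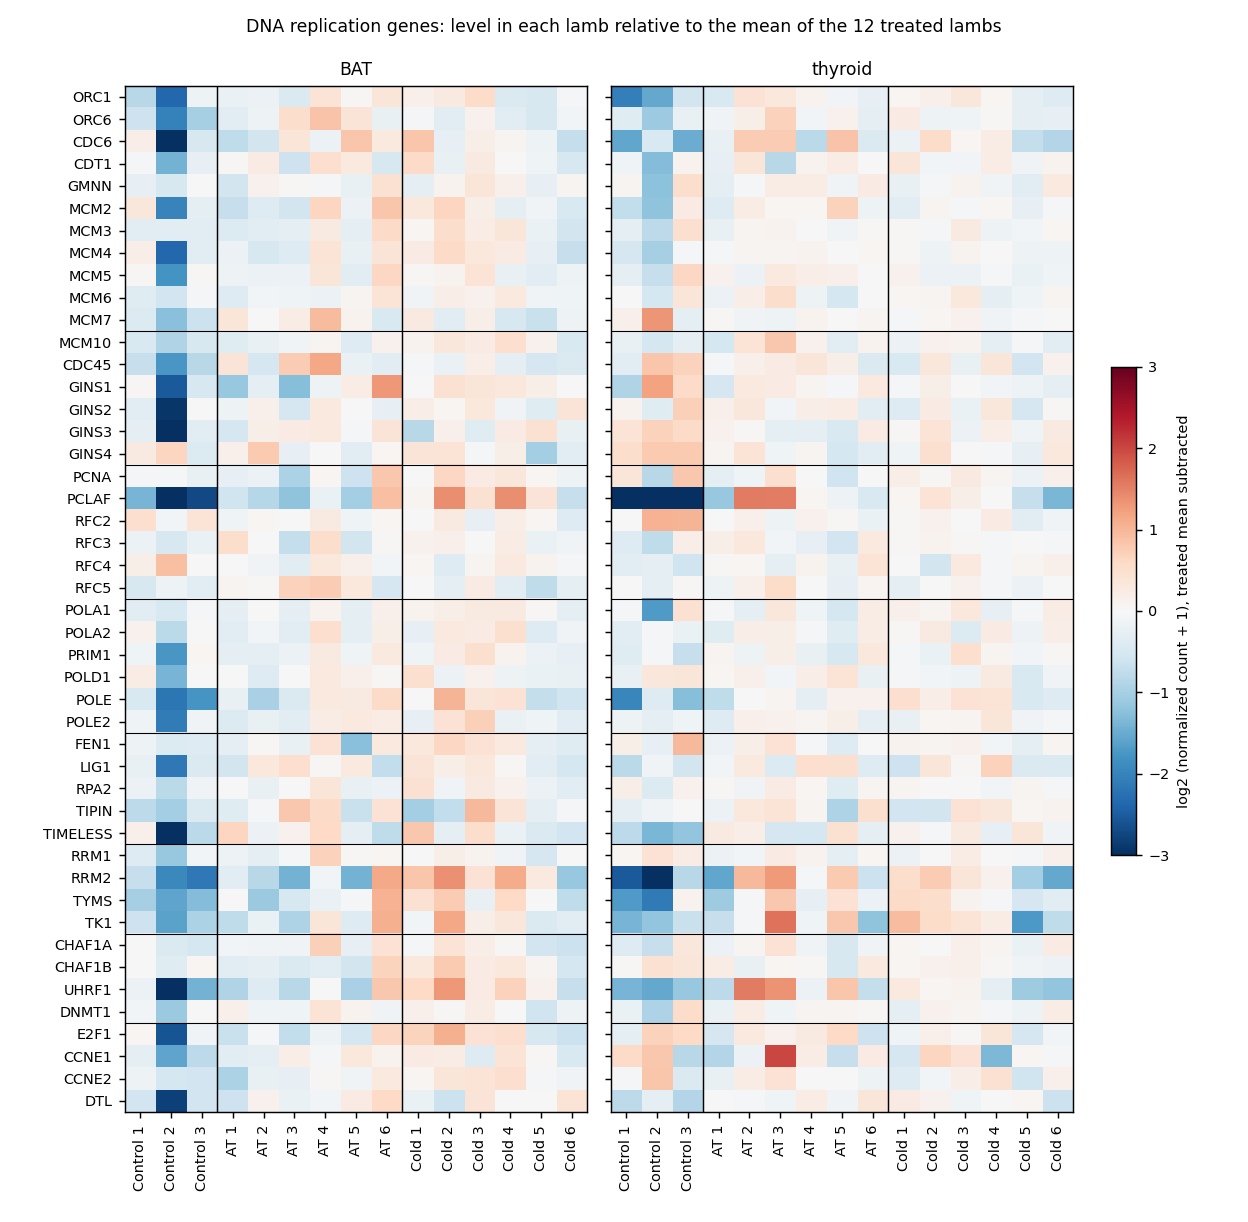
Level of each of the 46 members (rows, by role) in every lamb (columns, by group), with BAT and thyroid side by side, as log2(normalized count + 1) minus the mean of the 12 treated lambs; colours saturate at 3 in either direction. The column of Control 2 in BAT is low across most roles, and in thyroid PCLAF is low in all 3 controls.

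In BAT no member passed the test in cold against control, where 1.21% of the 14905 genes tested were called, that is changed by at least 1 on the log2 scale with an adjusted p under 0.05. The test was edgeR's quasi-likelihood test with Benjamini-Hochberg adjustment over all genes. In AT against control none was called either, with 6.07% of all genes called. At an unadjusted p under 0.05 there were 7 members in each comparison, and among all genes 2704 in cold and 3868 in AT. DESeq2 called 2 members in cold, RRM2 and PCLAF, and 2 in AT, ORC6 and CDC45. Most log2 fold changes (log2FC) of the members were above 0, 42 of 46 in cold with a median of 0.29 and 40 of 46 in AT with a median of 0.22, while the median of all genes was -0.10 and -0.03, and 41.2% and 47.6% of all genes were above 0. The 2 comparisons share their controls.

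PCLAF, a small protein that binds PCNA, had the largest difference in BAT. Its normalized counts were 18.7 in Control 1, 7.02 in Control 3 and 2.15 in Control 2, against a lowest, median and highest value of 21.5, 30.6 and 96.5 in AT and of 31.3, 68.9 and 136 in cold. Every treated lamb was above every control, although the lowest AT value was close to Control 1. The log2FC was 2.73 ± 0.75 (SE, n = 6 and 2) in cold, with an edgeR adjusted p of 0.0694, and 1.76 ± 0.72 in AT, with an edgeR adjusted p of 0.135. RRM2, the small subunit of ribonucleotide reductase, had 86.9, 31.2 and 36.6 in Controls 1, 3 and 2, between 52.6 and 313 in AT (median 95.4) and between 64.1 and 369.5 in cold (median 222). Its groups overlapped, and its log2FC of 1.97 ± 0.76 in cold had an edgeR adjusted p of 0.183.

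ORC6, the smallest subunit of the origin recognition complex, came closest to the threshold in AT. It stood at 76.2, 58.5 and 27.97 in Controls 1, 3 and 2, at 94.6 to 213 in AT (median 129) and at 84.3 to 129 in cold (median 103), without overlap between controls and treated lambs. Its log2FC was 1.05 ± 0.33 in AT (edgeR adjusted p = 0.0561) and 0.64 ± 0.32 in cold (edgeR adjusted p = 0.318). CDC45, the helicase cofactor, likewise lay higher in every treated lamb (lowest, median and highest of 89.1, 138 and 281 in AT and 87.9, 106 and 144 in cold) than in Controls 1, 3 and 2 (77.6, 70.2 and 36.6), with a log2FC of 1.12 ± 0.40 in AT and an edgeR adjusted p of 0.0909. MCM7 had 1576, 1332 and 869 in Controls 1, 3 and 2 and between 1503 and 4034 in AT (median 2325), with overlap and a log2FC of 0.78 at an edgeR adjusted p of 0.151. These 3 genes take part in licensing and unwinding.

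The genes of nucleotide supply had the highest median of the 8 roles in BAT, 1.22 in cold and 0.98 in AT, with none called. TYMS, which makes thymidylate, had 42.8, 34.3 and 27.97 in Controls 1, 3 and 2, between 39.0 and 177 in AT (median 78.1) and between 50.3 and 145 in cold (median 101), with overlap only in AT. UHRF1, which brings DNMT1 to new DNA, had 138, 57.7 and 8.61 in the same controls against 79.0 to 276 in AT and 96.9 to 389.9 in cold, and both treated groups overlapped Control 1. The 11 licensing genes had medians of 0.18 in cold and 0.19 in AT. RFC2 was the lowest member in both comparisons, with a log2FC of -0.46 and -0.43.

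The BAT results depended on the controls. With Control 2 kept, PCLAF was called in cold (log2FC 3.17, edgeR adjusted p = 0.0177) and 4 members were called in AT, PCLAF, ORC6, CDC45 and MCM7, and the median log2FC of the members was 0.66 in cold and 0.56 in AT. In AT, ORC6 was also called without AT 1, AT 2 or AT 6 in turn, and CDC45 without AT 2 or AT 6. Neither was called without AT 3, AT 4 or AT 5. Without AT 4, the highest lamb for both genes, the log2FC of CDC45 was 0.92. Without Control 3, which leaves 1 control, that of ORC6 was 0.89.

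**Figure D2:**
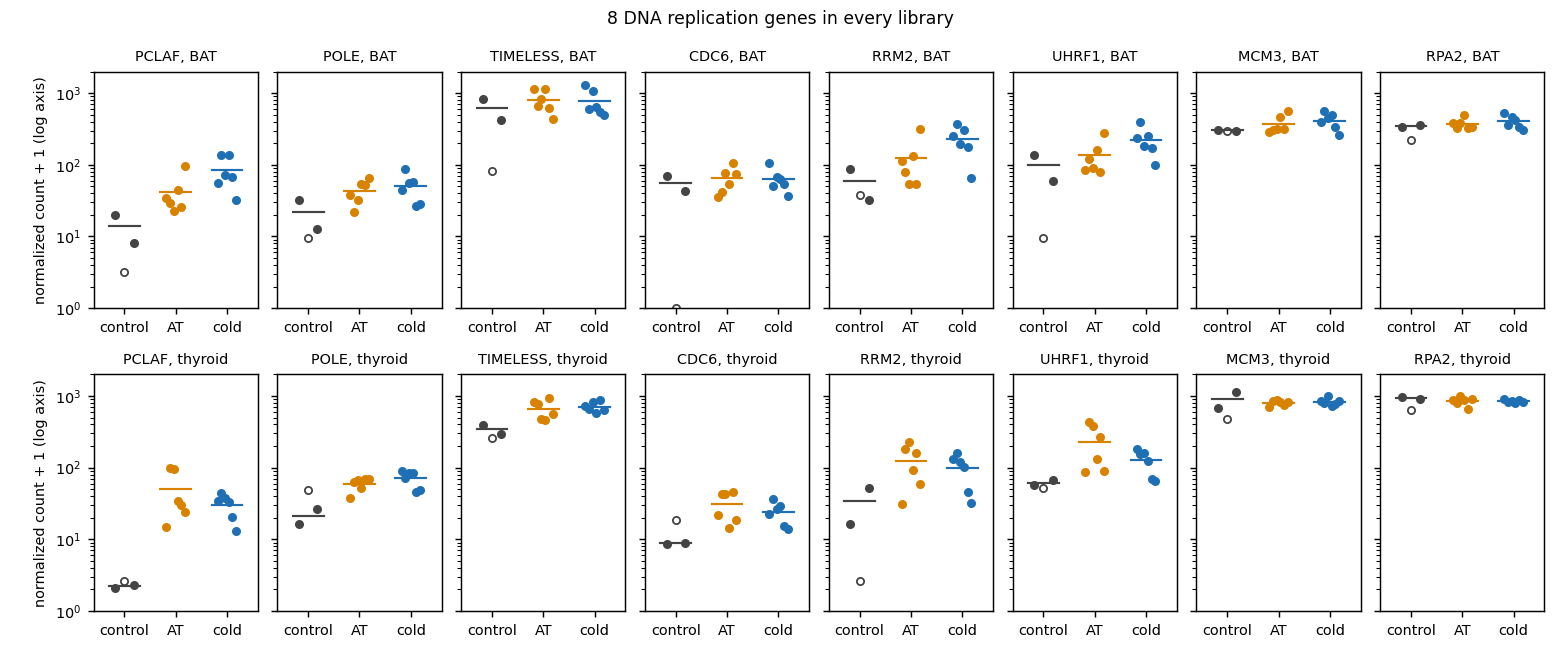
Normalized count + 1 (log axis) of 8 members in every lamb, by group and tissue; open symbols are Control 2, and lines are group means without it. In thyroid PCLAF is at 1 to 2 normalized counts in the 3 controls and at 11.9 or more in the 12 treated lambs, while treated and control values of RPA2 overlap in both tissues.

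In thyroid 3 members were upregulated in cold against control, PCLAF, POLE and TIMELESS, and 3 in AT against control, PCLAF, POLE and CDC6. None was downregulated. A sum over 8 macrophage markers moved with these comparisons, from 1721 to 2632 in the 3 thyroid controls, 2886 to 6073 in AT and 3365 to 9210 in cold. Every treated lamb lay above every control in this sum. Not every marker moved so, since CD68 stood at 615 to 783 in these controls and at 364 to 877 in the treated lambs. The part of the sum in the result was not tested. In cold 8.04% of the 16122 genes tested were called and 1.89% were called higher, and in AT 7.8% and 1.82%. By adjusted p alone, at any fold, the same 3 members passed in cold (19.3% of all genes) and 6 passed in AT (21% of all genes), of which 5 were higher. The median log2FC of the 46 members was 0.07 in cold and 0.08 in AT, with 25 and 27 members above 0, against -0.28 for all genes in both comparisons.

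PCLAF had 1 read in each of the 3 control libraries, or 1.09, 1.32 and 1.58 normalized counts in Controls 1, 3 and 2. It had 14.03 to 97.2 normalized counts in AT (median 31.1) and 11.9 to 43.3 in cold (median 33.0), so that all 12 treated lambs lay above all controls. The ratio of summed, size-corrected counts to those of the 2 controls used was 37.3 in AT (95% interval 10.2 to 309, counting error only) and 24.4 in cold (6.67 to 203), with edgeR adjusted p of 0.00561 and 0.0127. A ratio against 2 reads in all has this wide an interval. AT 2 and AT 3 were the 2 thyroid libraries with RAG1 and RAG2 reads and the highest PCLAF. Leaving them out left PCLAF called in AT, together with POLE, TIMELESS and DTL, while CDC6 was then not called (edgeR adjusted p = 0.0518).

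POLE stood at 15.2 and 25.1 in Controls 1 and 3, at 36.3 to 68.4 in AT (median 63.9) and at 44.9 to 89.2 in cold (median 77.1). The log2FC was 1.80 ± 0.41 in cold (edgeR adjusted p = 0.0101) and 1.54 ± 0.40 in AT (edgeR adjusted p = 0.0165). Control 2, which was left out, stood at 47.4, within the range of both treated groups. With this lamb kept, POLE was not among the 4 members called in AT (ORC1, TIMELESS, UHRF1 and PCLAF) but remained among the 4 called in cold (ORC1, TIMELESS, PCLAF and POLE).

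TIMELESS, which travels with the fork and holds the helicase and polymerase together, had 388, 298 and 261 in Controls 1, 3 and 2, 463 to 926 in AT (median 663) and 571 to 872 in cold (median 692), with no overlap. Its log2FC was 1.05 ± 0.29 in cold (edgeR adjusted p = 0.0215), and in AT it was 0.96 ± 0.28 (edgeR adjusted p = 0.0278), just under the fold required. Without Cold 5 the fold in cold was also just under it (0.98). CDC6, the loader of the MCM helicase, had 7.60, 7.94 and 17.4 in Controls 1, 3 and 2, 13.3 to 44.1 in AT (median 31.1) and 12.8 to 35.8 in cold (median 23.2), and Control 2 overlapped both. Its log2FC was 1.92 ± 0.60 in AT (edgeR adjusted p = 0.0346) and 1.55 ± 0.59 in cold, where it was not called (edgeR adjusted p = 0.0775). The call of CDC6 in AT was lost in 9 of 16 alternatives, with edgeR adjusted p of 0.0539 without the filter on low counts, 0.0557 with RNA integrity as a covariate, 0.0512 without AT 5 and 0.0615 with all 3 controls.

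Of the remaining members in thyroid, DTL and PCNA passed in AT by adjusted p alone, in opposite directions. DTL had 51.0, 47.6 and 72.7 in Controls 1, 3 and 2 against 80.9 to 115 in AT, and its log2FC there was 0.91 ± 0.29 (edgeR adjusted p = 0.0377). PCNA had 790.5, 1083 and 343 in the same controls against 406 to 859 in AT, with a log2FC of -0.66 ± 0.22 (edgeR adjusted p = 0.0464) and overlapping groups. ORC1, the large subunit of the origin recognition complex, was higher in all 12 treated lambs (31.4 to 58.7) than in Controls 1, 3 and 2 (9.77, 29.1 and 14.2), but its log2FC of 1.205 ± 0.42 in AT and 1.18 ± 0.42 in cold had edgeR adjusted p of 0.0523 and 0.0597. UHRF1 had 55.4, 66.1 and 50.6 in the controls, 85.8 to 437 in AT and 64.8 to 182 in cold, with a log2FC of 1.92 ± 0.68 in AT (edgeR adjusted p = 0.0563). MCM7 had 3479 and 2541 in Controls 1 and 3 and 7759 in Control 2, against 2792 to 3427 in the 12 treated lambs.

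The thyroid calls rested on 2 control libraries, and a fit without 1 of them has a lone control, assumed to vary like the other groups. Without Control 3 the genes called among all tested went from 1296 to 90 in cold and from 1258 to 94 in AT, and no member was called. The edgeR adjusted p in cold was then 0.203 for PCLAF, 0.0966 for POLE and 0.309 for TIMELESS, and 0.138 for PCLAF in AT, at log2FC of 4.63, 2.21, 0.89 and 5.34. Without Control 1, whose library held skeletal muscle transcripts, PCLAF (0.0616) and POLE (0.0615) lost their edgeR call in cold, and POLE and CDC6 lost it in AT, while TIMELESS was called in both and RFC2 was called lower. In the fit on the AT and control libraries alone, only PCLAF was called in AT. With another scaling (TMM), the median of all genes moved from -0.28 to 0.02 in cold and to 0.05 in AT, that of the members to 0.38 and 0.44, and the share of higher genes among all called genes from 23.5% to 57.6% in cold and from 23.4% to 63.7% in AT. In BAT the same share moved from 47.5% to 71.4% in cold and from 47.1% to 63.9% in AT. The members called in thyroid were all called higher under TMM too, where ORC1 and DTL were also called in cold and ORC1, TIMELESS and DTL in AT.

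**Figure D3:**
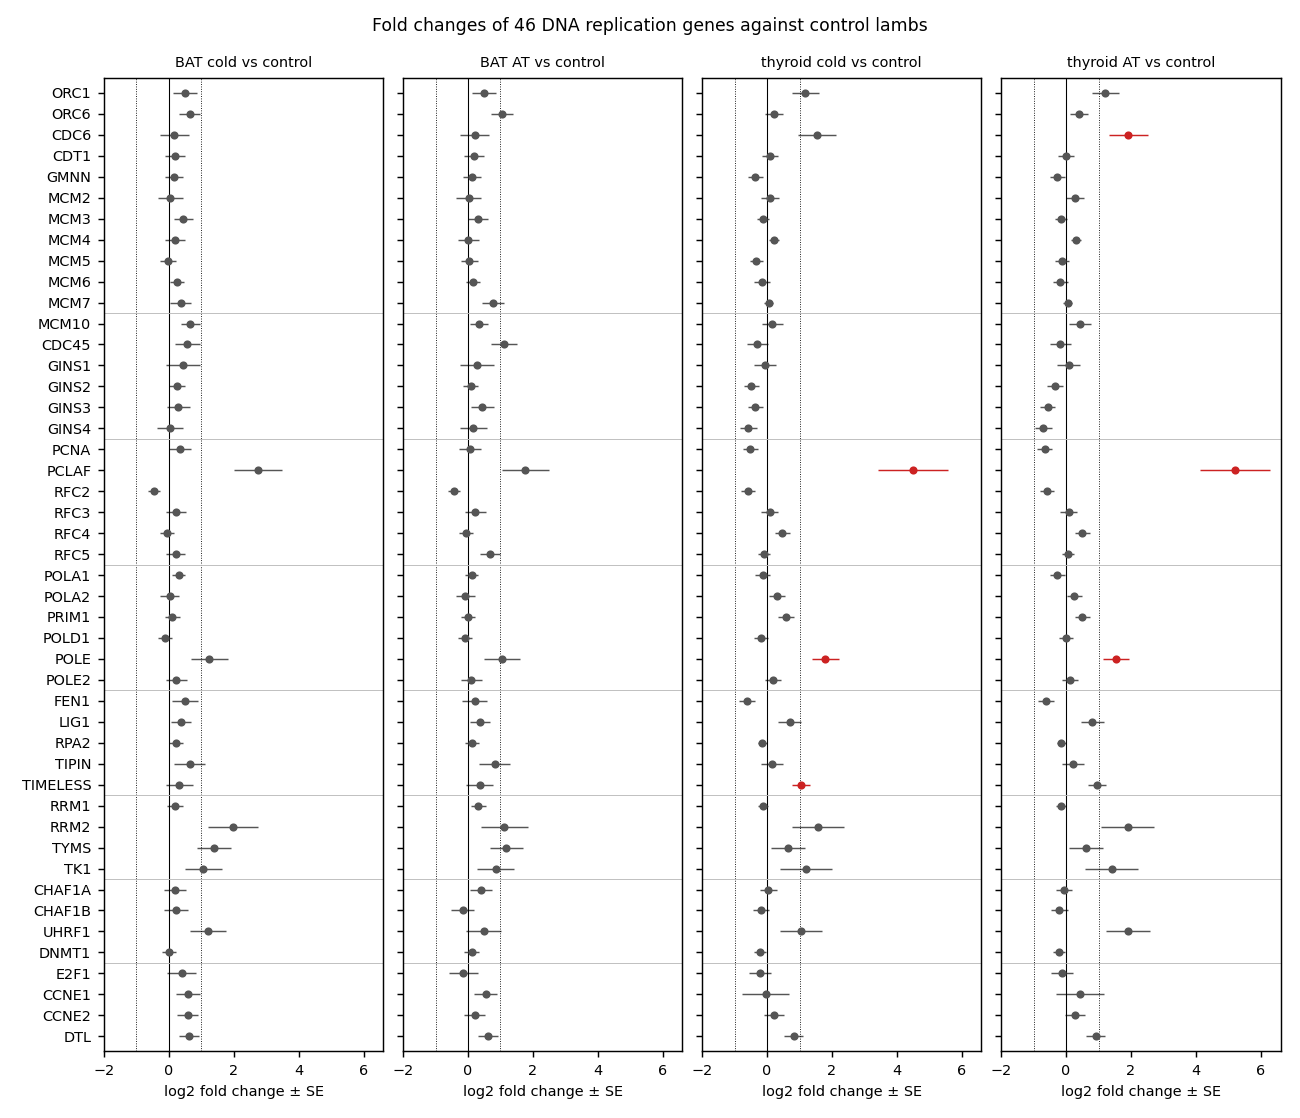
Log2 fold change with its standard error of the 46 members against control in BAT and thyroid tissue, for cold and AT, from edgeR; called members are red, and dotted lines mark a log2 fold change of 1 in either direction. In BAT the points of cold run from -0.46 to 2.73 with none called, and in thyroid they run from -0.62 to 4.49 with PCLAF, POLE and TIMELESS called.

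Cold against AT asks what temperature did in lambs of the same age. No member was called in BAT, where 0.275% of all genes were, and 2 members had an unadjusted p under 0.05 by edgeR, PCLAF at a log2FC of 0.97 ± 0.43 and RFC5 at -0.49 ± 0.21. The lowest edgeR adjusted p of a member was 0.371, and DESeq2 called none. PCLAF had a median of 68.9 normalized counts in cold and 30.6 in AT, but AT 6 with 96.5 lay above 4 of the 6 cold lambs. In thyroid 0% of all genes were called, no member had an unadjusted p under 0.05 by edgeR although 870 genes did, and DESeq2 called no member. The median log2FC of the members was 0.04 in BAT and -0.03 in thyroid, against -0.05 and 0.00 for all genes. The median SE of a member was 0.22 in BAT and 0.18 in thyroid.

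Whether the changes differed between the tissues was tested in a joint fit of 28 libraries. No member was called for a difference between BAT and thyroid in the change from control to cold (0.188% of 17021 genes called), from control to AT (1.62%) or from AT to cold (0%). At an unadjusted p under 0.05 there were 2, 5 and 2 members, and 1999, 3022 and 1339 genes in all. DESeq2 also called no member in any of the 3. PCLAF, whose AT change was larger in thyroid, had an edgeR adjusted p of 0.167, and CDC45 and GINS3, whose AT change was larger in BAT, had 0.169. With Control 2 kept, CDC45 and MCM7 were called for the AT change, higher in BAT. That PCLAF, POLE and TIMELESS were called in thyroid and not in BAT is thus no shown difference between the tissues.

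Other genes of the same processes were read from lists beside the members. Of 35 other replication genes, none was called in BAT against control or in thyroid cold, and 2 were higher in thyroid AT, CHTF18, part of an alternative clamp loader, with a log2FC of 1.18 (edgeR adjusted p = 0.00996), and RECQL4, a helicase that takes part in initiation, with 1.46 (edgeR adjusted p = 0.0428). Of 15 other nucleotide genes, none was called in BAT against control. In thyroid 3 were lower in cold, IMPDH2 of guanine nucleotide synthesis (-1.02), CTPS1, which makes CTP (-1.42), and the nucleoside transporter SLC29A1 (-1.08), and UMPS of pyrimidine synthesis was lower in AT (-1.06). The members of nucleotide supply, RRM1, RRM2, TYMS and TK1, were not called in those comparisons.

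Of 28 genes that control entry into S phase (cyclins, CDK inhibitors, RB and E2F factors), 1 was lower in BAT in both comparisons, CCND1, cyclin D1, with a log2FC of -1.23 in cold (edgeR adjusted p = 0.0153) and -1.42 in AT (edgeR adjusted p = 0.00212). In thyroid 27 were tested. In cold CDC25A (-1.07), MYC (-1.70) and CDKN1A (-3.75) were lower, and in AT CDC25A (-1.10) and MYCN (-1.005) were lower and the CDK inhibitor CDKN1C was higher (1.12). CDKN1A, the p21 inhibitor, stood in the thyroid at 5361 in Control 1 and 7183 in AT 3, the 2 libraries with skeletal muscle transcripts, and at 1667 or less in the other lambs. The repressor E2F7 was called in no comparison with control in either tissue. E2F8, also a repressor, was not called in BAT. It was the gene of the list not tested in thyroid, where it did not pass the filter on low counts.

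A list of mitosis genes had larger medians than the members in each comparison with control. In BAT the median log2FC over 42 mitosis genes was 2.33 in cold, with 7 called higher, among them TOP2A (2.63, edgeR adjusted p = 0.0495), and 1.65 in AT, with 4 called higher, among them CENPF (2.40). Among the 43 tested in thyroid it was 0.93 in cold, with 11 higher, and 0.91 in AT, with 13 higher, MKI67, a protein of cycling cells, having 3.00 and 3.33. In cold against AT none was called in either tissue, with medians of 0.72 in BAT and -0.18 in thyroid. Over single lambs, the median of the members in BAT ran from -0.33 to 0.30 around the treated mean and was -0.19, -0.33 and -1.50 in Controls 1, 3 and 2. That of the mitosis genes ran from -0.97 to 1.47 and was -1.38, -2.24 and -2.77 in the same controls. In thyroid the members ran from -0.18 to 0.23 in treated lambs and were at -0.28, 0.10 and -0.40 in Controls 1, 3 and 2, of which only Control 3 lay inside the treated range, and the mitosis genes ran from -0.91 to 0.76 and were at -0.97, -0.75 and -2.13.

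**Figure D4:**
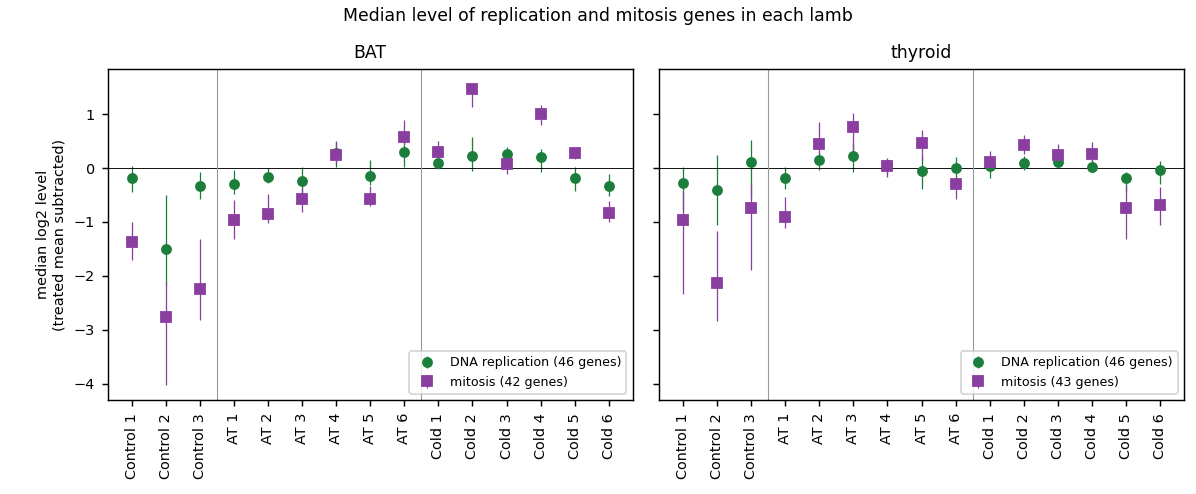
Median over the replication genes (46) and over the mitosis genes (42 in BAT, 43 in thyroid) of log2(normalized count + 1) relative to the mean of the 12 treated lambs, for every lamb and tissue; bars run from the lower to the upper quartile over the genes of a list. The replication medians of the treated lambs lie between -0.33 and 0.30 in BAT and the mitosis medians between -0.97 and 1.47.

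Among the 12 treated lambs the members differed in how far they spread. The highest lamb exceeded the lowest by a median factor of 2.46 over the members in BAT (1.48 to 7.03) and 1.93 in thyroid (1.203 to 11.3), and the factor was under 2 for 12 members in BAT and for 26 in thyroid. MCM4 (1.203) and MCM7 (1.23), both of the MCM ring, had the least spread in thyroid, and POLA1, the catalytic subunit of the priming polymerase, had the least in BAT (1.48). The widest were RRM2 (7.03), PCLAF (6.33), GINS1 (6.15) and UHRF1 (4.94) in BAT and CCNE1, cyclin E1 (11.3), TK1, thymidine kinase (11.1), PCLAF (8.20), RRM2 (7.33) and UHRF1 (6.75) in thyroid. Without thyroid AT 3 the factor was 4.31 for CCNE1 and 6.87 for TK1, and without BAT AT 6 that of GINS1 was 3.39, while no single lamb left out from either end moved that of PCLAF, RRM2 or UHRF1 by over 1.5 times.

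RRM2, UHRF1 and PCLAF were thus among the 5 widest members in both tissues, and in both they followed MKI67. Over the 12 treated lambs Pearson's r with MKI67 on the log2 scale was 0.98 for UHRF1, 0.92 for RRM2 and 0.90 for PCLAF in BAT, and 0.92, 0.98 and 0.90 in thyroid, as a description, since the values of a lamb share 1 library and its size factor. Spearman's rho lay between 0.87 and 0.97 for these 6 values. The r was above 0.7 for 13 members in BAT and 9 in thyroid, with a median over the 46 members of 0.43 and 0.36. MCM7 was below 0 in both tissues (-0.38 and -0.39), as was RFC5 in BAT (-0.46). The highest RRM2 values in BAT were those of Cold 2 (369.5), AT 6 (313) and Cold 4 (309), and in thyroid those of AT 3 (224), AT 2 (181) and AT 5 (160.3), with Cold 2 (158) close behind. AT 2 and AT 3 were also the 2 thyroid libraries with RAG1 and RAG2 reads and the highest DNTT.

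BAT and thyroid of the same lambs were compared last, on the common scale. In the 12 treated lambs 13 members were called higher in BAT and none was called lower. Of 17021 genes 40.6% were called, and 27.2% were called higher in BAT. The share of members called higher was near that of all genes. The median log2FC of BAT over thyroid was 0.67 over the members and 0.34 over all genes, and under TMM 0.41 and 0.10, with 11 members called. By adjusted p alone 38 members passed, 34 of them higher in BAT, while 12627 of the 17021 genes passed, 8493 of them higher. Some small differences shrank under the alternatives. The log2FC of MCM3 fell from 0.33 to as low as 0.02, and that of POLA2 from 0.38 to 0.05.

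DTL differed most, with normalized counts of 346 to 810.4 in BAT (median 520.2) and 34.4 to 70.2 in thyroid (median 56.6), so that the tissues did not overlap. Its log2FC was 3.27 ± 0.14 (edgeR adjusted p = 6.44e-17), and it was higher in BAT in 12 of 12 lambs. CDC6 had 57.3 to 168 in BAT against 7.77 to 27.6 in thyroid, with a log2FC of 2.63 ± 0.25 and no overlap. PCLAF (2.02 ± 0.35) and RRM2 (1.999 ± 0.38) were higher in BAT in 10 of 12 lambs each, and their ranges overlapped, PCLAF with 35.7 to 226 in BAT against 7.21 to 61.9 in thyroid and RRM2 with 84.1 to 616 against 18.9 to 145. The other members called were TYMS (1.82), TK1 (1.72), TIMELESS (1.57), ORC1 (1.54), CCNE1 (1.52), UHRF1 (1.41), GINS1 (1.34), MCM10 (1.12) and ORC6 (1.08). Among them were 3 of the 4 genes of nucleotide supply and none of the 6 polymerase genes. All 13 stayed called with the lamb as a block.

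A few members lay higher in thyroid. CDT1 (log2FC of BAT over thyroid -0.66), GINS3 (-0.68), GINS4 (-0.58) and RFC4 (-0.46) passed by edgeR's adjusted p alone and were lower in BAT in each of the 12 lambs, CDT1 with means of 447 in BAT and 706 in thyroid. DTL and CDT1 thus stood in opposite order in the tissues, DTL being the adaptor and CDT1 its target. RPA2 was slightly higher in BAT (0.25) but at -0.01 under TMM, and the other 8 members, such as E2F1 (0.23), LIG1 (-0.03) and RFC2 (-0.05), did not pass.

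**Figure D5:**
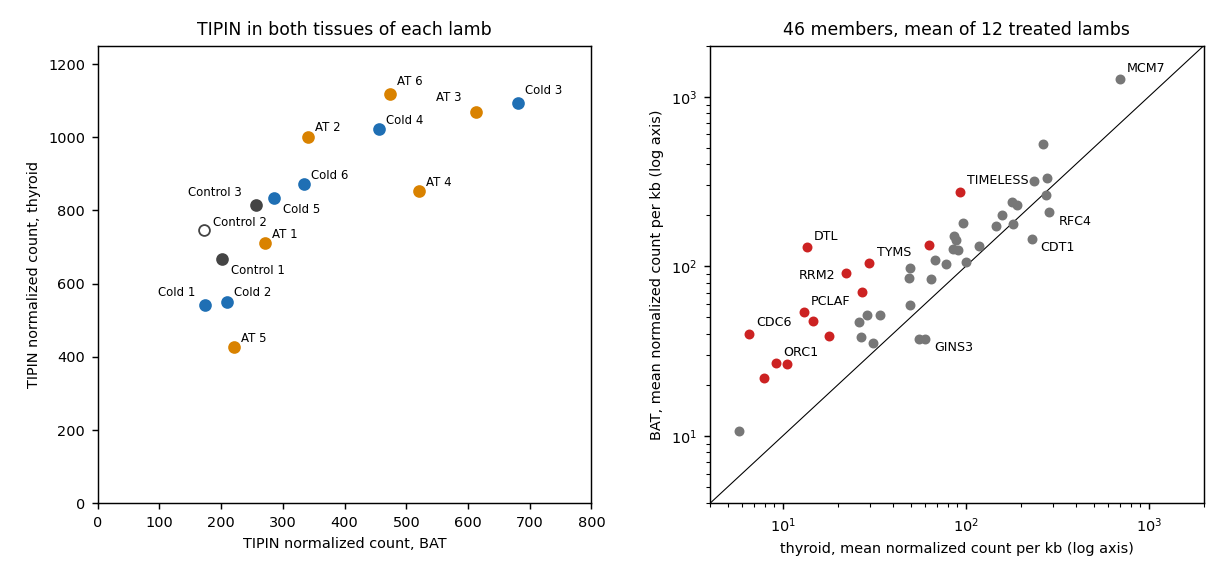
Left, normalized count of TIPIN in the BAT (x axis) and thyroid (y axis) of each lamb by treatment, Control 2 as an open symbol; the treated lambs lie between 173 and 681 in BAT and between 426 and 1118 in thyroid. Right, mean normalized count per kilobase of the 46 members over the 12 treated lambs, thyroid on the x axis and BAT on the y axis (both log) with the line of equality, the 13 members called higher in BAT in red and MCM7 highest in both tissues.

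In the 2 control lambs used, 9 members were called between the tissues, 7 higher in BAT and 2 lower. Of all genes 30.6% were called, and 16.5% were called higher in BAT. Here too the share of members called higher was near that of all genes. DTL (3.48), CDC6 (4.13), TIMELESS (2.21), ORC1 (2.19), PRIM1 (1.27), UHRF1 (2.01) and PCLAF were higher, and GINS3 (-1.55) and GINS4 (-1.35) were lower. DTL stood at 348.3 and 347.8 in the BAT of Controls 1 and 3 and at 31.9 and 30.3 in their thyroid. PCLAF had 23 reads in the 2 BAT libraries and 2 in the 2 thyroid libraries, a ratio of 24.1 (95% interval 5.95 to 211, counting error only) after size correction. Of these 7, 6 were also among the 13 of the treated lambs, the exception being PRIM1. With the lamb as a block UHRF1 was not called (edgeR adjusted p = 0.055 against 0.0417). With all 3 controls UHRF1 and PRIM1 were not called, at edgeR adjusted p of 0.0702 and 0.0802. Without Control 1, which leaves 1 control, UHRF1 and PCLAF were not called, at edgeR adjusted p of 0.497 and 0.149. Without Control 3 the same held for PRIM1 (edgeR adjusted p = 0.0934), UHRF1 (0.105) and both genes lower in BAT, GINS3 (0.0618) and GINS4 (0.339), whose log2FC were then -1.43 and -0.88.

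RECQL4 was higher in BAT in both treated (2.35) and control lambs (2.40), and of the 35 other replication genes 8 were higher and none lower in the treated lambs, POLD4, TOP1 and DBF4 among them, a share below the 27.2% of all genes called higher. In the control lambs 3 were higher and MCM9 was lower (-1.22). Of the 15 other nucleotide genes 7 were higher in the BAT of treated lambs, above the 27.2% of all genes. Of the 28 control genes 9 were higher, near that share, CDKN1C most of these (4.34), and 2 were lower. Of 44 mitosis genes 36 were higher, above that share, and 1 was lower.

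TIPIN, the partner of TIMELESS at the fork, varied alike in the 2 tissues of a lamb. Over the 12 treated lambs, taken as deviations from the mean of their treatment, its level in BAT (173 to 681 normalized counts) and in thyroid (426 to 1118) had a Pearson r of 0.86 and a Spearman rho of 0.88, with r at 0.85 without the 2 lambs farthest from the median. Of 14403 genes tested in both tissues 1.18% had an r as high. TIPIN was picked as the highest of the 46 members. The next member was GMNN with 0.73 (0.61 without 2 lambs), the median of the members was 0.28, and that of all genes was 0.18. The 90th percentile was 0.55 for the members and 0.59 for all genes, so the members as a set did not reach higher. RRM2, UHRF1 and PCLAF had r of 0.01, -0.02 and -0.01. The points share the lamb, and the 2 libraries of a lamb are separate. TIMELESS was called higher in BAT and TIPIN was not (log2FC 0.24 ± 0.21, edgeR adjusted p = 0.31).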

How the data were processed

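The authors extracted RNA with TRIzol, captured it with oligo(dT), sequenced it on the BGISEQ-500 platform, trimmed reads with Trimmomatic 0.39, aligned them with STAR 2.7.7a to Oar_rambouillet_v1.0 and counted them per gene with featureCounts (Subread 2.0.0), reads mapping to several places included. The deposited values are whole-number counts of reads per gene, not normalized, and the strand setting is not given in the sources used here. From these counts, a gene was tested if 10 or more libraries held 10 or more of its reads, size factors were taken from ACTB, RPL19 and HUWE1 with DESeq2 1.42.0, and edgeR 4.0.16 (R 4.3.3, limma 3.58.1) fitted a robust quasi-likelihood model to all groups of a tissue, and to both tissues together for comparisons between them. A gene was called at an absolute log2FC of at least 1 and a Benjamini-Hochberg adjusted p under 0.05 over all genes tested. SE is the log2FC divided by the root of its F value.

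The lamb number in the labels ties the libraries of an animal. The deviations of its 2 libraries from their group means correlated over 14403 genes at -0.003 (AT 3) to 0.37 (Cold 1), all but AT 3 above 0.1. Control 2 was left out as the study left out 1 control lamb, identified from its per-lamb values. Replicates are separate lambs. The models were tested on simulated data. The members and lists were chosen with earlier results of these data known. Named were called members, the highest member per role by normalized count per kilobase, and the 1 or 2 with the largest fold change per role. Other genes were named from the lists if called, at most 4 per comparison. The alternatives were another scaling, DESeq2, all 3 controls, no filter, 2 groups alone, RNA integrity as a covariate, the lamb as a block and each lamb left out. No sequence of a gene was at hand.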

Additional observations from a re-analysis of the deposited data

Results flagged for a closer look

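In 11 of 184 groups of 6 treated lambs (5.98%), the highest or lowest lamb stood far from the other 5 for the size of the group's range. Chance alone gives about 5% for normally distributed values. The values here were not on a log scale and the genes share libraries, so that rate may not hold. All 11 were high values, in normalized counts. In BAT, AT 6 stood apart in GINS1 (165 against 26.8 to 77.3 in the other 5), PCLAF (96.5 against 21.5 to 44.2), RRM2 (313 against 52.6 to 134), TYMS (177 against 39.0 to 85.96) and CHAF1B (92.2 against 39.5 to 47.9). This library also had the lowest UCP1, 195 normalized counts, and the part of that in these values was not tested. AT 4 stood apart in RPA2 (493 against 326 to 382) and RRM1 (979.9 against 501 to 631), AT 2 in GINS4 (69.1 against 31.3 to 43.9) and Cold 2 in TK1 (94.4 against 30.5 to 52.5). In thyroid, Cold 3 stood apart in PRIM1 (521 against 318 to 390.1) and AT 3 in CCNE1 (111 against 14.03 to 31.9). The thyroid library of AT 3 held skeletal muscle transcripts and RAG1 and RAG2 reads.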

How the results depend on the processing

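The count of members called in BAT cold against control, 0, was 2 under DESeq2 (RRM2 and PCLAF), 1 with all 3 controls, 1 with all 3 and TMM, 1 with only the 2 groups compared, and 0 with each lamb left out in turn. In BAT AT against control it moved from 0 to 2 under TMM, 2 under DESeq2, 4 with all 3 controls and 3 with all 3 and TMM, and ran from 0 to 2 with a lamb left out. In thyroid cold against control it moved from 3 to 5 under TMM and ran from 0 to 3 with a lamb left out. In thyroid AT against control it moved from 3 to 6 by adjusted p alone, 6 under TMM, 6 under DESeq2, 5 with all 3 controls and TMM and 1 with the 2 groups alone, and ran from 0 to 5 with a lamb left out. In both tissues and for the difference between them, cold against AT had 0 under every alternative run. Between the tissues of treated lambs, 13 became 38 by adjusted p alone, while the count over all genes went from 6908 to 12627. With a lamb left out the 13 members ran from 12 to 15, and in control lambs 9 ran from 6 to 7. With the replicate block (the lamb) these counts were 13 and 8, and with the block and TMM 10 and 8, and the block changed no other count of members called. The tissue difference of the AT change moved from 0 to 2 with all 3 controls, with or without TMM. RPA2 between the tissues of treated lambs (0.25) was -0.0056 under TMM, -0.079 with all 3 controls and TMM and -0.0082 with the block and TMM. RFC2 in thyroid without Control 3 was 0.048 in cold and 0.034 in AT, against -0.57 and -0.58, and without Control 1, where RFC2 was called lower, -1.00002 and -1.01. The cause of these moves was not tested. Fits with all 3 controls and TMM, with the block and TMM, and without AT 2 and AT 3 were chosen after seeing the data. The adjusted p of PCLAF in BAT cold was 0.00281 under DESeq2 and ran from 0.0157 (all 3 controls and TMM) to 0.437 (without Control 3, which leaves 1 control) over the edgeR alternatives.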
